A study of Danio rerio with 3 samples.

Results

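Among 11207 barcodes of zebrafish brain with at least 100 genes detected, 232 (2.07%) carried RNA of gpr139 or kiss1 and are described here. gpr139 encodes an orphan G protein-coupled receptor, and kiss1 encodes one of the kisspeptin neuropeptides. The barcodes were chosen by measured counts: at least 1 unique molecular identifier (UMI, 1 captured RNA molecule) summed over gpr139 and kiss1, none of fat2, used here as a gate for cerebellar granule neurons, and none of gad1b, gad2 or slc32a1, the genes of GABA synthesis and vesicular GABA transport. They are called gpr139/kiss1 barcodes below, since a barcode may hold less than a whole cell or RNA of more than 1 cell. The levels of these 6 genes fixed the choice and are given as a description only.

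The study asked what zinc does to the zebrafish brain at the level of single cells. It comprises 1 droplet (10x Genomics) library of brain cells for each of 3 groups, labelled Ctrl, Zn10 and Zn15. The labels give the tissue and the treatment name, and state no unit, duration, strain, age, sex or number of fish. With 1 library per treatment, no difference between treatments has a replicate check, and the intervals given for them are 95% exact intervals that cover counting error alone.

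The habenula is a paired nucleus of the dorsal diencephalon that relays forebrain signals to the interpeduncular nucleus and the raphe. In zebrafish it has a dorsal division, with left and right neurons of different gene expression and projection, and a ventral division, which corresponds to the mammalian lateral habenula. Zebrafish kiss1 and aoc1 mark ventral habenular neurons, lines driven by gng8 label dorsal habenular neurons, and mammalian GPR139 is enriched in the medial habenula and couples to Gq. Most habenular neurons release glutamate through the vesicular transporter VGLUT2, encoded by the slc17a6 genes.

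The Ctrl library held 89 gpr139/kiss1 barcodes among 4629 kept, Zn10 held 79 among 2459 and Zn15 held 64 among 4119. Their median depths were 322, 335 and 344.5 UMIs in Ctrl, Zn10 and Zn15, beside 271, 300 and 296 UMIs in all other barcodes. Their summed counts came to 35105, 30850 and 24129 UMIs, which sets the precision of every level below. The 3 libraries shared 4 to 8 barcode sequences pairwise, none of them a gpr139/kiss1 barcode, and doublets were not called. The transcript annotated as malat1, a nuclear non-coding RNA, reached 334511, 322075 and 350491 of every 1000000 UMIs in these barcodes. Of the 253 kept barcodes with either gene, 1 was excluded by fat2 and 20 by the GABA genes. Near the limits of the rule, 23 of the chosen barcodes had 100 to 109 genes while 25 barcodes with either gene had 90 to 99, and 85 rested on 1 UMI of the marker genes while 147 had 2 or more and 51 had 5 or more, up to 11.

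Most of the chosen barcodes carried gpr139. The receptor alone was seen in 174, kiss1 alone in 16 and both in 42. Among all kept barcodes, gpr139 was detected in 73.3% of the 60 with kiss1 (95% interval 60.3 to 83.9%) and in 1.73% (1.5 to 1.99%) of those without, so the neuropeptide was found mostly where the receptor was. In the other direction, kiss1 was detected in 18.6% of the 237 gpr139 barcodes. Free RNA, or RNA of another cell, can put a UMI into any droplet. The share with either gene among barcodes with at least 3 UMIs of oligodendrocyte genes served as a rough measure of both together. That share was 1.40% in Ctrl (9 of 642 barcodes, median 277.5 UMIs), 0 of 237 in Zn10 (median 266 UMIs), which allows up to 1.27%, and 0.230% in Zn15 (1 of 434, median 308 UMIs). Of the 9 in Ctrl, 7 met the rule, 4 of them with 2 or more marker UMIs. In Ctrl the interval of the share, 0.643 to 2.64%, takes in the 1.92% of kept barcodes that met the rule. By share alone the Ctrl barcodes were thus not distinguishable from this background. Among barcodes with at least 3 UMIs of 13 microglial genes the share was 1.15% in Ctrl (3 of 262). It was 0 of 102 in Zn10, which allows up to 2.94%, and 0.418% in Zn15 (1 of 239).

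Grouping the barcodes by the rest of their RNA brought most gpr139/kiss1 barcodes together. When all kept barcodes were clustered without the 6 genes of the rule and without mitochondrial, ribosomal protein, haemoglobin and malat1 transcripts, 164 of the 232 (70.7%, 64.4 to 76.5%) fell into cluster 13, against 120 of 10975 other barcodes (1.09%). This cluster of 284 barcodes was led by nwd2, ppp1r14ab, nr4a2a, pou4f1, si:dkey-117i10.1, irx1b, rergla, gng8, zic2b and bean1. By library it took in 67.4%, 78.5% and 65.6% of the gpr139/kiss1 barcodes of Ctrl, Zn10 and Zn15. With the libraries pooled, it held 83.3% of the barcodes with both genes, 67.8% of those with gpr139 alone and 68.8% (41.3 to 89.0%) of those with kiss1 alone. The kiss1-only barcodes in it were 9 of 10 in Ctrl, 1 of 1 in Zn10 and 1 of 5 in Zn15. Barcodes with 2 or more UMIs of the marker genes fell there in 81.6% of cases and barcodes with 1 UMI in 51.8%. Among the 15 nearest neighbours of a gpr139/kiss1 barcode, 50.9% were such barcodes on average, against 0.989% for the other barcodes.

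**Figure D1:**
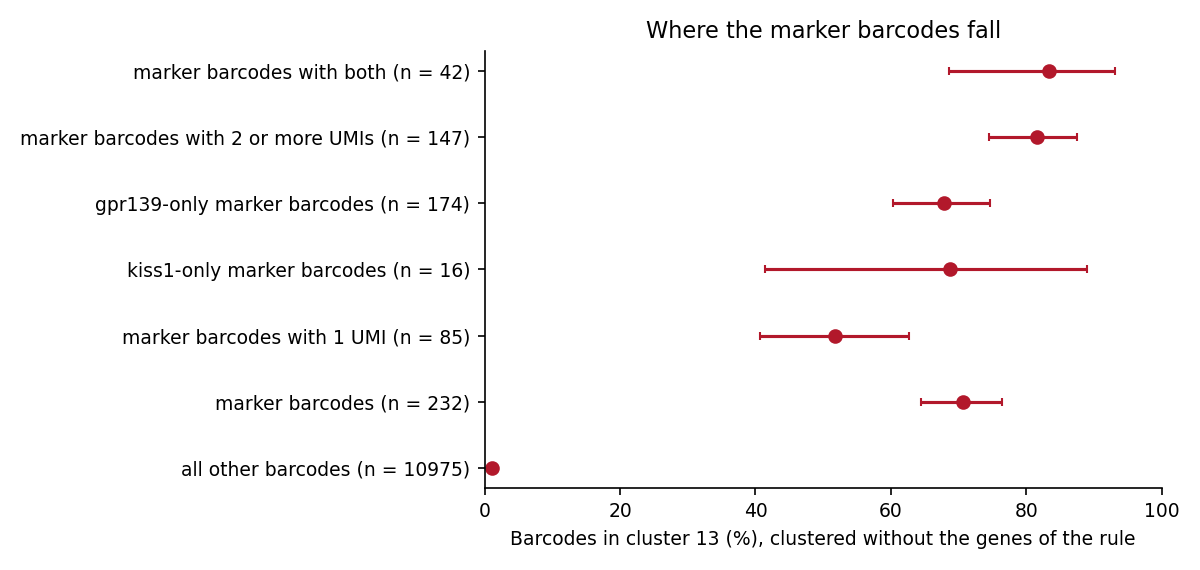
Share of barcodes in cluster 13 (x axis, percent) after clustering without the 6 genes of the rule, by class (y axis), with points for shares and bars for 95% exact intervals. Barcodes of the 3 libraries are pooled. The classes of gpr139/kiss1 barcodes lie between 51.8% and 83.3%, and all other barcodes lie at 1.09%.

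The 68 gpr139/kiss1 barcodes outside cluster 13 held 0 UMIs of gng8, pou4f1 and slc5a7a and 3 UMIs of nwd2, against 152 of nwd2 inside. The clustering used these genes, so the contrast follows from it and is a description. The 0 allows a UMI of each gene in up to 4.41% of these barcodes at their median depth of 397 UMIs and sets no limit on how many express it. Of them, 20 lay in cluster 1, led by atp1b1b and adcyap1b, 11 in cluster 8, led by sema5a and aplnrb, 7 in cluster 3, led by the myelin genes mpz, plp1b and mbpa, and 6 in cluster 5, led by il1b and ccl34b.1. Ctrl supplied 6 of those 7 and 5 of those 6. The 7 oligodendrocyte genes of the gate summed to 365 UMIs in the gpr139/kiss1 barcodes of Ctrl, of which 321 lay in 3 barcodes. In the Zn10 library they summed to 1 UMI, and in the Zn15 library to 31. Of 14 microglial genes, 9 were at 0, among them csf1ra, mpeg1.1 and c1qa, and the summed count of the others was 35 in Ctrl and 1 in each zinc library. The part of this RNA in the comparisons below was not tested except where values without the 8 barcodes that hold at least 3 oligodendrocyte UMIs are given.

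Compared with all other kept barcodes, gpr139/kiss1 barcodes had higher levels of 204 genes, led by si:dkey-117i10.1 and ppp1r14ab. UMIs were summed per library and class and tested with edgeR's quasi-likelihood test with library as a block, so that the 3 libraries, which also differ in treatment, are the replicates, and the spread between them may be technical. Of 4815 genes tested, 204 (4.24%) were higher in gpr139/kiss1 barcodes and 321 (6.67%) lower at an adjusted p under 0.05. Here and in the comparisons below, a gene was tested only with a high enough level in at least 3 class sums. A gene low in every library of the other class could thus enter only through the gpr139/kiss1 barcodes where it is high. Its call and the count of higher genes follow in part from this filter. Likewise a gene low in every gpr139/kiss1 library could enter only through the other class. Its call and the count of lower genes also follow in part from this filter. DESeq2 called 153 higher and 83 lower, a smaller and opposite balance. It gave no adjusted p for 1680 of the 4815 genes, which it could therefore not call. The number of lower genes thus depends on the test and on which genes it adjusts. A gene not called with DESeq2 in this comparison may be among the 1680. Without the Zn10 library 85 were higher and 164 lower, and without Zn15 128 and 201. Levels are given as UMIs per 1000000 UMIs of the class sum (CPM), in the order Ctrl, Zn10 and Zn15, and compare a gene between classes, not genes with each other.

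The gene with the largest fitted change was si:dkey-117i10.1, whose product is not described by its name. It stood at 399, 746 and 746 CPM in gpr139/kiss1 barcodes and at 2.66, 7.94 and 0.690 CPM in all others, a log2 fold change of 7.26 ± 0.56 (SE; edgeR adjusted p = 1.1e-35). At such levels in all others the gene entered the test only through the gpr139/kiss1 barcodes, so its call follows in part from the filter. Of its 67 UMIs in kept barcodes, 82.1% were in gpr139/kiss1 barcodes. ppp1r14ab, of a family of inhibitors of protein phosphatase 1, was even across libraries, with 1424, 1264 and 1285 CPM against 14.0, 20.4 and 22.8 CPM (log2 fold change 5.94 ± 0.30; edgeR adjusted p = 9.6e-82). At such levels in all others ppp1r14ab too entered the test only through the gpr139/kiss1 barcodes, so its call follows in part from the filter. For both genes every library of gpr139/kiss1 barcodes lay far above every library of the rest, which follows in part from how they were named.

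The 15 named higher genes include 5 genes of transcription factors. irx1b, an Iroquois homeobox factor, stood at 456, 713 and 456 CPM against 15.3, 13.6 and 4.83 CPM. nr4a2a, a nuclear receptor of the Nurr1 type, reached 769, 713 and 622 CPM against 15.3, 30.6 and 14.5 CPM (log2 fold change 4.99 ± 0.41; edgeR adjusted p = 1.7e-31). pou4f1, which encodes the habenular factor Brn3a, was at 228, 746 and 539 CPM against 21.9, 40.8 and 15.9 CPM (4.03 ± 0.49; edgeR adjusted p = 2.7e-14). Its relative pou4f2 and the zinc finger gene zic2b were also higher, with log2 fold changes of 4.15 and 4.59. For each of these 5 factors the lowest gpr139/kiss1 library lay above the highest library of the rest. Genes were named for large changes of the same direction in each library, so this separation follows in part from the choice. At their levels in all others, irx1b, nr4a2a and pou4f1 were also tested only through the gpr139/kiss1 barcodes, as were any of the 15 as low there. Their calls follow in part from the filter. Also among the 15 were wnt11, a Wnt ligand, rgs8 and rgs16, regulators that speed the shut-off of G protein signals, and rergla, a Ras-related gene. Their log2 fold changes ran between 3.58 for rgs16 and 4.98 for wnt11. csrp2, which encodes a LIM domain protein, nwd2, si:ch211-51a6.2 and si:dkeyp-72h1.1 complete the 15, with log2 fold changes of 4.12, 3.77, 5.79 and 4.06.

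**Figure D2:**
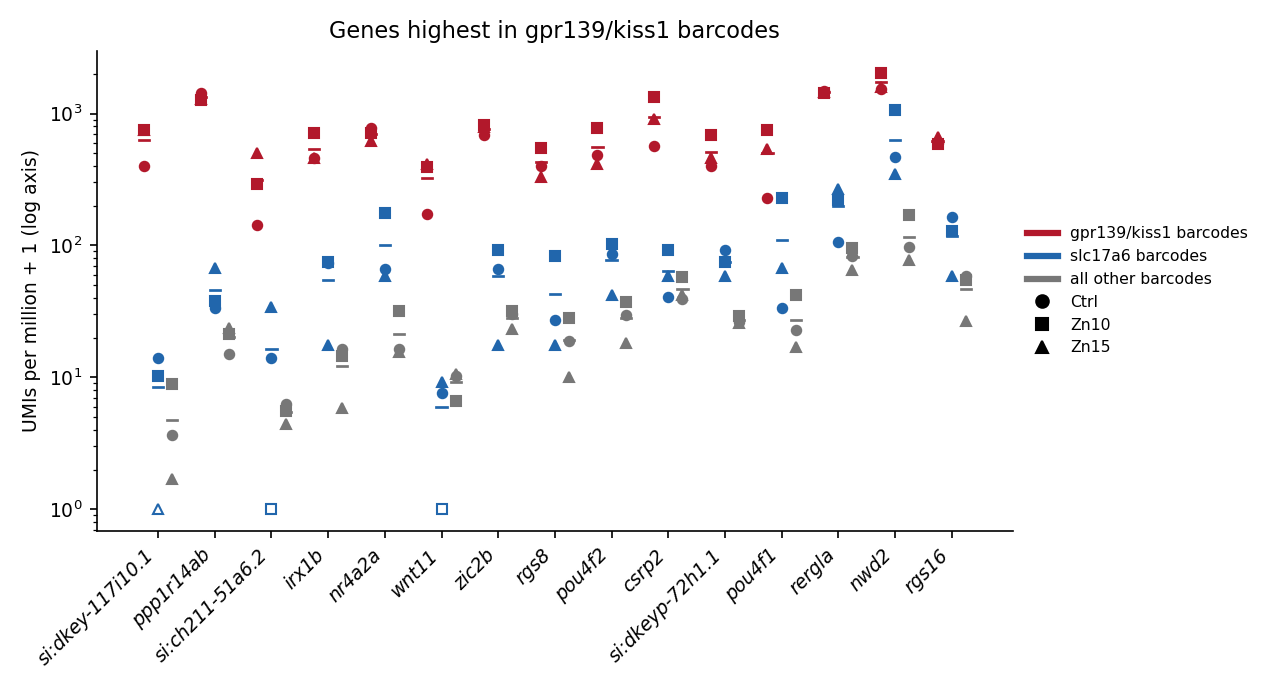
CPM plus 1 (log axis) of the 15 genes named as higher in gpr139/kiss1 barcodes, for gpr139/kiss1 barcodes, slc17a6 barcodes and all other barcodes. Symbols are the libraries, short lines are means of the 3 libraries and open symbols mark 0 UMIs; the gpr139/kiss1 libraries lie above all libraries of both other classes in each gene except pou4f1, where Ctrl at 228 CPM is level with a slc17a6 library.

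The genes named as lower were not detected in gpr139/kiss1 barcodes. Each was thus tested only through the other barcodes, where it is higher, so its call follows in part from the filter. pax2a and en2a, transcription factors of the midbrain-hindbrain region, pax6b, a factor of the forebrain and of cerebellar granule neurons, the cell death gene pmaip1, cd99, the antigen presentation gene mhc2dab, the cystine transporter gene slc7a11 and amer2 all had 0 UMIs in the 3 sums. At the limit of 3 counts over the summed libraries, pax2a was at least 5.79-fold lower than in the other barcodes, pmaip1 at least 5.87-fold and amer2 at least 2.79-fold. For amer2, pax6b, en2a and slc7a11 the call was lost under at least 1 other setting.

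Most of the genes known from the habenula that could be tested were higher, although single levels were low. Of 19 listed genes 18 were in the tables, 11 had a UMI in gpr139/kiss1 barcodes and 10 could be tested. Of the 10, 7 were higher and 1, the chemokine receptor gene cxcr4b, was lower, beside 4.24% and 6.67% of all genes tested. cxcr4b (edgeR adjusted p = 0.043) was not called with DESeq2. The median log2 difference of those 10, with sums under 3 counts set to 3, was 3.04, beside 0.06 for all genes tested. The count and the median follow in part from the filter. Of the 7, aoc1, tac3a, gng8, slc5a7a and pou4f1 were too low in all other barcodes to be tested without the gpr139/kiss1 barcodes. Listed genes without a UMI in gpr139/kiss1 barcodes were not among the 10. aoc1, the ventral habenular marker, had 85.5, 32.4 and 207 CPM against 1.33, 2.27 and 2.07 CPM (log2 fold change 5.55 ± 0.50; edgeR adjusted p = 1.8e-09). These levels rest on 3, 1 and 5 UMIs, which are 9 of the 16 aoc1 UMIs in all kept barcodes. tac3a, a tachykinin precursor gene of the habenula, had 57.0, 97.2 and 82.9 CPM against 5.98, 7.94 and 2.76 CPM. The potassium channel tetramerisation domain genes kctd8 and kctd12.2, of a family with auxiliary subunits of GABA-B receptors, had log2 fold changes of 2.89 and 2.11. slc5a7a, the choline transporter gene, and gng8, a G protein gamma subunit, followed at 2.74 and 2.63 (edgeR adjusted p = 0.00058 and 0.005).

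The habenula list was incomplete in these barcodes. tac1, nrp1a, chata, chrna3, chrnb4, chrna5 and adcyap1a had 0 UMIs, among them nrp1a, a guidance receptor of left dorsal habenular axons, and the nicotinic receptor subunit genes of cholinergic transmission. kctd12.1, a dorsal habenular gene, stood at 85.5, 64.8 and 41.4 CPM against 14.0, 26.1 and 8.98 CPM and missed the threshold (edgeR adjusted p = 0.12). gng8, for which only 7 UMIs fell in gpr139/kiss1 barcodes, had 36 in the 120 other barcodes of cluster 13. Without the Zn10 library 3 of 10 listed genes were called higher, without Ctrl 4 of 9 and without Zn15 6 of 9. Since gpr139 and kiss1 chose the barcodes, the habenular name rests here on the 7 listed genes called higher, of which pou4f1 with 44 UMIs is the best counted. They are no independent check, since the list was chosen with earlier results of these data known. Most of them, pou4f1 included, also entered the test only through these barcodes, so their calls follow in part from the filter. The 44 UMIs lie in the 164 gpr139/kiss1 barcodes of cluster 13, with 0 in the 68 outside it, so they say nothing about those 68. In the gpr139/kiss1 barcodes of cluster 13, pou4f1, tac3a and slc5a7a stood at 785, 89.2 and 196 CPM. They stood higher in the 120 other barcodes of that cluster, at 1116, 268 and 424 CPM, whereas aoc1 stood lower there, at 44.6 against 125 CPM. These genes thus do not set the chosen barcodes apart from the rest of the cluster.

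Of the transmitter genes looked at, the glutamatergic gene slc17a6b had the most UMIs and was seen in 87 of the 232 barcodes. Of the cholinergic genes, slc5a7a was higher, as given above, slc18a3b had 2 UMIs and chata had 0. slc17a6b was higher, at 1225, 2010 and 1699 CPM in gpr139/kiss1 barcodes against 433, 678 and 391 CPM in all others (log2 fold change 1.53 ± 0.23; edgeR adjusted p = 2.6e-09), while slc17a6a, slc17a7a, slc17a7b and slc17a8 had 0 UMIs. The gates on gad1b, gad2 and slc32a1 excluded GABA neurons by rule. slc6a1b, a GABA transporter gene, was lower, with 28.5, 194 and 41.4 CPM against 393, 552 and 304 CPM. All other barcodes include those with GABA genes, so this difference can follow from the rule and is a description. Of 7 monoamine genes 6 were at 0 and the other, ddc, had 1 UMI. Of the kisspeptin and gonadotropin-releasing hormone genes kiss2, kiss1rb, gnrh2 and gnrh3 had 0 UMIs in gpr139/kiss1 barcodes, and the kisspeptin receptor gene kiss1ra had 1 UMI, in Ctrl.

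A list of Gq signalling genes, the pathway of mammalian GPR139, with the receptor genes drd2a, drd2b, oprm1 and mc4r held 13 genes in the tables. The 4 receptor genes had 0 UMIs in gpr139/kiss1 barcodes, 4 of the others had a UMI, and none of these passed the threshold by edgeR or DESeq2, with 2 at an unadjusted edgeR p under 0.05. prkcaa, a protein kinase C gene, led them at 171, 259 and 124 CPM against 61.8, 66.9 and 46.3 CPM (edgeR adjusted p = 0.069). itpr1b, an inositol trisphosphate receptor gene, had 2, 0 and 1 UMIs, too few to measure. Of 8 ionotropic glutamate receptor genes tested, gria1b was higher, at 171, 130 and 41.4 CPM against 18.6, 29.5 and 15.9 CPM, a call lost without the Ctrl or the Zn10 library. In the thalamus, pretectum and midbrain list 3 of 6 tested genes were higher, beside 4.24% of all genes tested. Beside irx1b these were tcf7l2, a Wnt pathway factor of thalamus and habenula, at 1111, 908 and 1575 CPM against 343, 317 and 193 CPM, and zfhx3, whose call was lost with DESeq2 and without the Zn10 or the Zn15 library, while lhx9, a thalamic factor, stood at 114, 162 and 0 CPM against 83.1, 79.4 and 67.0 CPM.

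Activity-regulated genes, which neurons transcribe within minutes of depolarisation, were higher in gpr139/kiss1 barcodes. Of 15 tested, 6 were higher and 0 lower, beside 4.24% and 6.67% of all genes tested: egr4, fosab, egr1, npas4a, fosb and egr2a. DESeq2 also called 6 higher, and the median log2 difference of the 15 was 1.27 beside 0.06 for all genes tested. egr4 led with 2507, 3468 and 2818 CPM against 355, 532 and 423 CPM (log2 fold change 2.56 ± 0.22; edgeR adjusted p = 2.4e-28). fosab followed at 1681, 2917 and 2528 CPM against 814, 959 and 719 CPM. npas4a, which is induced by calcium entry and encodes a neuron-specific factor, was at 370, 1135 and 829 CPM against 142, 201 and 110 CPM. Each library of gpr139/kiss1 barcodes exceeded each library of the rest for these genes, whereas jun overlapped between the classes. The share of all genes tested that separate in this way is not given, so the separation is a description. atf3, at 456, 519 and 539 CPM against 692, 556 and 688 CPM, did not pass the threshold (edgeR adjusted p = 0.21).

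**Figure D3:**
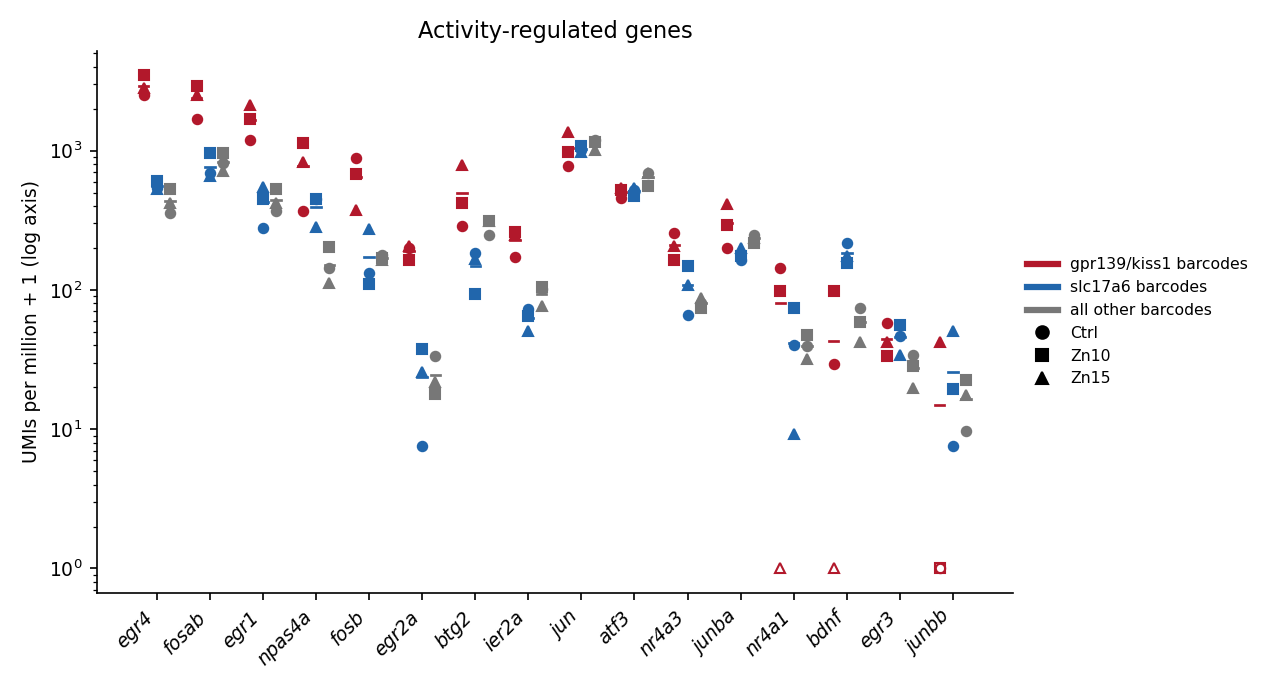
CPM plus 1 (log axis) of 16 activity-regulated genes in gpr139/kiss1 barcodes, slc17a6 barcodes and all other barcodes, with 1 symbol per library, short lines for means and open symbols for 0 UMIs. egr4, fosab and egr1 of the gpr139/kiss1 libraries lie above every library of both other classes, and jun and atf3 do not. This is a description, without the share of all genes tested that separate so.

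Some genes of other cell classes were called lower, more of them by edgeR than by DESeq2. The edgeR counts of each list stand beside the 6.67% of all genes tested that were called lower. How many of the listed genes are among those that DESeq2 gave no adjusted p is not given. Of 13 genes of neurons in general 1, snap25a, was higher, beside 4.24% of all genes tested, and 2, elavl4 and rbfox3a, were lower. DESeq2 called 0 higher and 1 lower, and the median log2 difference was -0.07 beside 0.06. The summed level of this list was 7008, 7553 and 5636 CPM against 6681, 7773 and 5838 CPM, so general neuronal RNA was not raised. Of 9 tested immature neuron genes 5 were lower, among them the tubulin gene tubb5 at 114, 162 and 82.9 CPM against 339, 505 and 408 CPM, and the transcription factor genes sox11a and sox11b. Lower calls numbered 5 of 7 for radial glia, 4 of 7 for oligodendrocytes and 3 of 5 for microglia or macrophages, and DESeq2 gave 1, 0 and 2 for these lists and 3 for immature neurons. The summed level of the oligodendrocyte list stood at 10397, 32.4 and 1285 CPM in gpr139/kiss1 barcodes against 7949, 4015 and 5426 CPM in all others, so that Ctrl was above the others and both zinc libraries below them. Of 13 heat shock genes 6 were lower by edgeR and 0 by DESeq2, with hsp90aa1.2 at 3333, 2431 and 3067 CPM against 4958, 3665 and 4178 CPM, a call also lost without the Zn10 library. The zinc-binding metallothionein gene mt2 was lower, at 256, 32.4 and 249 CPM against 948, 516 and 425 CPM (edgeR adjusted p = 2.1e-07), and none of 5 zinc transporter genes tested passed the threshold by edgeR or DESeq2, with 3 at an unadjusted edgeR p under 0.05.

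The comparison was repeated with 968 barcodes that carried slc17a6a or slc17a6b and none of the genes of the rule. It set gpr139/kiss1 barcodes against barcodes with a glutamatergic gene. Of 1118 genes tested 125 (11.2%) were higher and 64 (5.72%) lower by edgeR, and 71 and 16 by DESeq2. Without Ctrl the counts were 74 and 27. The leading genes were again si:dkey-117i10.1, wnt11 and ppp1r14ab, with log2 fold changes of 6.22 ± 0.59, 5.72 and 5.08 ± 0.34. ngfra, a neurotrophin receptor gene, joined them at 256, 746 and 539 CPM against 19.7, 55.1 and 74.6 CPM, as did zic6. Within the habenula list pou4f1 and kctd8, the 2 genes that could be tested, were both higher, at log2 fold changes of 2.50 and 1.99, and the call of kctd8 was lost with DESeq2 and without the Ctrl library.

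Against slc17a6 barcodes too the activity-regulated genes stood out. Of 13 tested 8 were higher, beside 11.2% of all genes tested: the 6 above with ier2a and btg2. Their log2 fold changes ran between 1.13 for npas4a and 3.30 for egr2a, with egr4 at 2.61 ± 0.20 (edgeR adjusted p = 5.7e-07). The median log2 difference of the 13 was 1.62, beside -0.20 for all genes tested. DESeq2 called 6 higher, and without the Ctrl library 5 were called. On the lower side were pax2a, the transcription factor gene tshz3b, the neurogenic factor gene neurod1, the synapse organiser gene cbln1, the ependymin gene epd, tmsb2, the kinase gene tnika and adcyap1r1a, the receptor gene of the peptide PACAP. Of 9 tested genes of neurons in general 0 were higher and 2, elavl4 and stmn2a, lower, beside 11.2% and 5.72% of all genes tested. elavl4, a neuronal RNA-binding protein gene, was lower at 912, 746 and 456 CPM against 2601, 3516 and 3430 CPM, while the synaptic gene snap25a stood at 2136, 2107 and 2238 CPM against 2588, 2690 and 1881 CPM and did not pass the threshold (edgeR adjusted p = 0.83). For neurod1, cbln1, adcyap1r1a and tnika the call was lost with DESeq2 and without the Ctrl library, and for egr2a without the Ctrl library.

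Against 216 fat2 barcodes, 112 of 330 genes tested (33.9%) were called, 56 higher and 56 lower (17.0% each). With DESeq2 62 were called. Of 8 tested genes of neurons in general 0 were higher and 6 lower by edgeR, and 3 were lower by DESeq2. ppp1r14ab, rgs16, si:dkey-117i10.1 and irx1b had 0 UMIs in fat2 barcodes, so that ppp1r14ab was at least 28.2-fold and irx1b at least 11.5-fold higher in gpr139/kiss1 barcodes, at a limit of 3 counts over the summed libraries. tcf7l2 was at 1111, 908 and 1575 CPM in gpr139/kiss1 barcodes against 87.6, 0 and 0 CPM in fat2 barcodes (log2 fold change 5.21 ± 0.60; edgeR adjusted p = 1e-15). tcf7l2 and the genes at 0 UMIs in fat2 barcodes were tested only through the gpr139/kiss1 barcodes, where they are high. Their calls, and the count of higher genes, follow in part from the filter. The Id factor gene id4, msi2b, tmcc3 and zfhx4 were also higher, with log2 fold changes between 3.70 and 4.71. The calcium sensor gene vsnl1a, zgc:92107, neurod1, the neuronal splicing factor gene rbfox3a, zbtb18, syne1b, nebl and ndrg3b were lower. Those with next to no UMIs in gpr139/kiss1 barcodes, such as vsnl1a with 1, were likewise tested only through the fat2 barcodes. zbtb18 was at 228, 583 and 414 CPM against 4030, 11131 and 6404 CPM. zic1, a factor shared by granule neurons and dorsal neural lineages, lay between the classes: it stood at 655, 681 and 705 CPM in gpr139/kiss1 barcodes, lower than the 1095, 2064 and 1435 CPM of fat2 barcodes and higher than the 211, 325 and 296 CPM of all other barcodes. Both differences passed the threshold by edgeR, but that from fat2 barcodes was lost with DESeq2 and without the Zn10 library, and that from all others without Ctrl. Of 4 granule neuron genes tested against fat2 barcodes 0 were higher and 2, zic1 and neurod1, lower, beside 17.0% each. Against all other barcodes 2 of 7, zic1 and etv1, were higher and 2, neurod1 and pax6a, lower, beside 4.24% and 6.67%. Against slc17a6 barcodes 2 of 5, zic1 and etv1, were higher and 1, neurod1, lower, beside 11.2% and 5.72%.

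Between barcodes with gpr139 alone and those with kiss1 alone, 0 of 84 genes tested passed the threshold by edgeR. At an unadjusted p under 0.05 there were 8 genes, and DESeq2 called 0. The kiss1-only group is small, with 10, 1 and 5 barcodes in Ctrl, Zn10 and Zn15, so differences of moderate size were not detectable. Against all barcodes with kiss1, a comparison added after seeing the data, 0 of 141 genes were called by edgeR and 0 by DESeq2, with 10 at an unadjusted edgeR p under 0.05. The values side by side show where the groups ran apart without a call. nwd2 stood at 2037 CPM in gpr139-only barcodes, 547 CPM in kiss1-only barcodes and 715 CPM in barcodes with both. ppp1r14ab stood at 1127, 1459 and 2210 CPM and aoc1 had 3, 0 and 6 UMIs in the same groups.

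Zn10 had the largest share of gpr139/kiss1 barcodes. They made up 1.92% (1.55 to 2.36%) of kept barcodes in Ctrl, 3.21% (2.55 to 3.99%) in Zn10 and 1.55% (1.2 to 1.98%) in Zn15. The share in Zn10 was 1.67 times that in Ctrl (1.22 to 2.29), that in Zn15 was 0.808 times that in Ctrl (0.577 to 1.13), and that in Zn15 was 0.484 times that in Zn10 (0.342 to 0.681). When gpr139/kiss1 barcodes with at least 3 oligodendrocyte UMIs were not counted, over unchanged numbers of kept barcodes, the ratios were 1.81, 0.863 and 0.476. kiss1 alone as the positive gene did not show the excess in Zn10: the ratios were 0.941 (0.471 to 1.81) for Zn10 over Ctrl and 0.487 (0.233 to 0.962) for Zn15 over Ctrl. Shares of a whole are not independent of one another, and treatment cannot be told apart from differences between libraries.

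**Figure D4:**
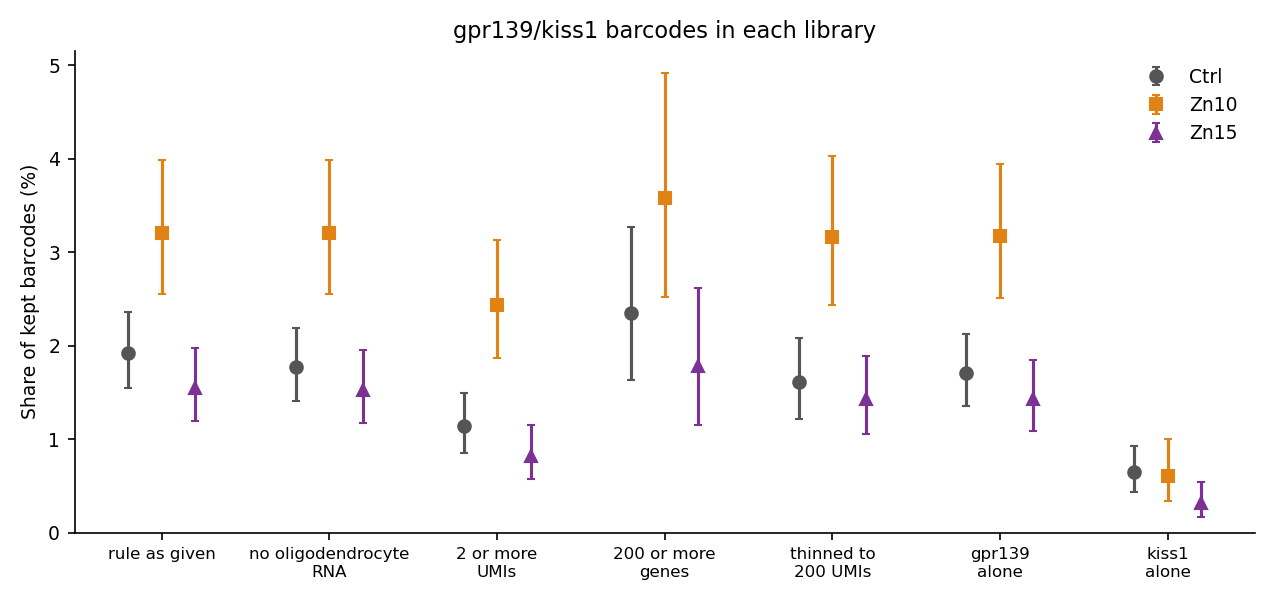
Share of kept barcodes (y axis, percent) that met the rule in Ctrl, Zn10 and Zn15 under the rule as given and under 6 other rules, with 95% exact intervals. Zn10 is highest under each rule except kiss1 alone, where Ctrl is highest, and with at least 200 genes its interval overlaps that of Ctrl.

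The level of gpr139 per barcode was also highest in Zn10, and that of kiss1 was not. A gpr139/kiss1 barcode held an average of 2.12, 3.62 and 2.27 gpr139 UMIs in the libraries Ctrl, Zn10 and Zn15. kiss1 was detected in 19.0% (11 to 29.4%) of gpr139/kiss1 barcodes in Zn10 and in 20.3% (11.3 to 32.2%) in Zn15, against 33.7% (24.0 to 44.5%) in Ctrl, with intervals that overlap. These are genes of the rule, and their levels among barcodes chosen for them are a description.

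Within gpr139/kiss1 barcodes, 417 genes had at least 20 UMIs over Zn10 and Ctrl. Of these 93 (22.3%) differed at least 2-fold, 51 higher and 42 lower in Zn10, around a median log2 ratio of 0.19. Over Zn15 and Ctrl there were 352 such genes, of which 61 (17.3%) differed at least 2-fold, 24 higher and 37 lower in Zn15, around a median of -0.01. With sums of this size many genes pass 2-fold by counting error alone, so the genes named are among those whose interval excludes 1. These were 35 higher and 31 lower in Zn10, and 13 higher and 20 lower in Zn15. The intervals hold for 1 gene each, without correction for the number of genes, and leave out the spread between barcodes. Some can thus exclude 1 by counting error alone.

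Of the 8 genes named as higher in Zn10, ntrk3a had the largest ratio. ntrk3a, a neurotrophin receptor gene, had 17 UMIs in Zn10 and 3 in Ctrl, a ratio of 6.45 (1.87 to 34.3). npas4a had 35 in Zn10 and 13 in Ctrl, a ratio of 3.06 (1.58 to 6.31), and camkvb, of the calmodulin kinase-like family, 32 and 13 (2.80, 1.43 to 5.81). In all other barcodes the log2 ratios of these 3 genes were 0.73, 0.50 and 0.58, below the log2 ratios of 2.69, 1.62 and 1.49 in gpr139/kiss1 barcodes. The genes were named for their ratios in gpr139/kiss1 barcodes, so smaller ratios elsewhere can follow from the choice, and the difference was not tested. pou4f1 had 23 UMIs in Zn10 and 8 in Ctrl, a ratio of 3.27 (1.41 to 8.46), and adgre10, kiaa1549la, ccni and mbnl3 were likewise higher. slc17a6b reached a ratio of 1.64 (1.09 to 2.48) in gpr139/kiss1 barcodes and 1.56 in all others.

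The 8 genes named as lower in Zn10 include a pair of mitochondrial features. A feature counted over the mitochondrial genome had 9 UMIs in Zn10 and 49 in Ctrl, a ratio of 0.209 (0.0903 to 0.430), and mt-co2, a cytochrome c oxidase subunit gene, 4 and 20. Their log2 ratios in all other barcodes, -1.32 and -1.30, had the same sign. The ubiquitin gene UBB had 2 UMIs in Zn10 and 19 in Ctrl, the chaperone gene hspa4a 5 and 24, the kinase gene plk3 22 and 61, nucks1a 12 and 43, and tmsb4x, an actin-sequestering protein gene, 20 and 55. itm2ba, with 39 UMIs in Zn10 and 106 in Ctrl, had a log2 ratio of -1.26, which became -0.56 without the barcodes that hold oligodendrocyte RNA. For the other 15 named genes the log2 ratio without those barcodes remained beyond 1 in size and kept its sign.

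In Zn15, mcl1a, a survival gene of the Bcl-2 family, had 27 UMIs against 9 in Ctrl, a ratio of 4.36 (1.99 to 10.5), and ccni, a cyclin gene, 19 against 6. vash2, eif4g2b, map2, a microtubule-associated protein gene, the chaperone gene dnajb1b, the growth-arrest gene btg2 and adgre10 were also higher. Lower were nucks1a, hspa4a, plk3, rgmb, derl1, laptm4b, itm2ba and tnrc6c1. Without the barcodes that hold oligodendrocyte RNA the log2 ratio of itm2ba was -0.71 in place of -1.43, and that of tnrc6c1 -0.46 in place of -1.46. ccni and adgre10 were named as higher, and nucks1a, hspa4a, plk3 and itm2ba as lower, in both zinc libraries, which share the Ctrl library as their comparison.

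**Figure D5:**
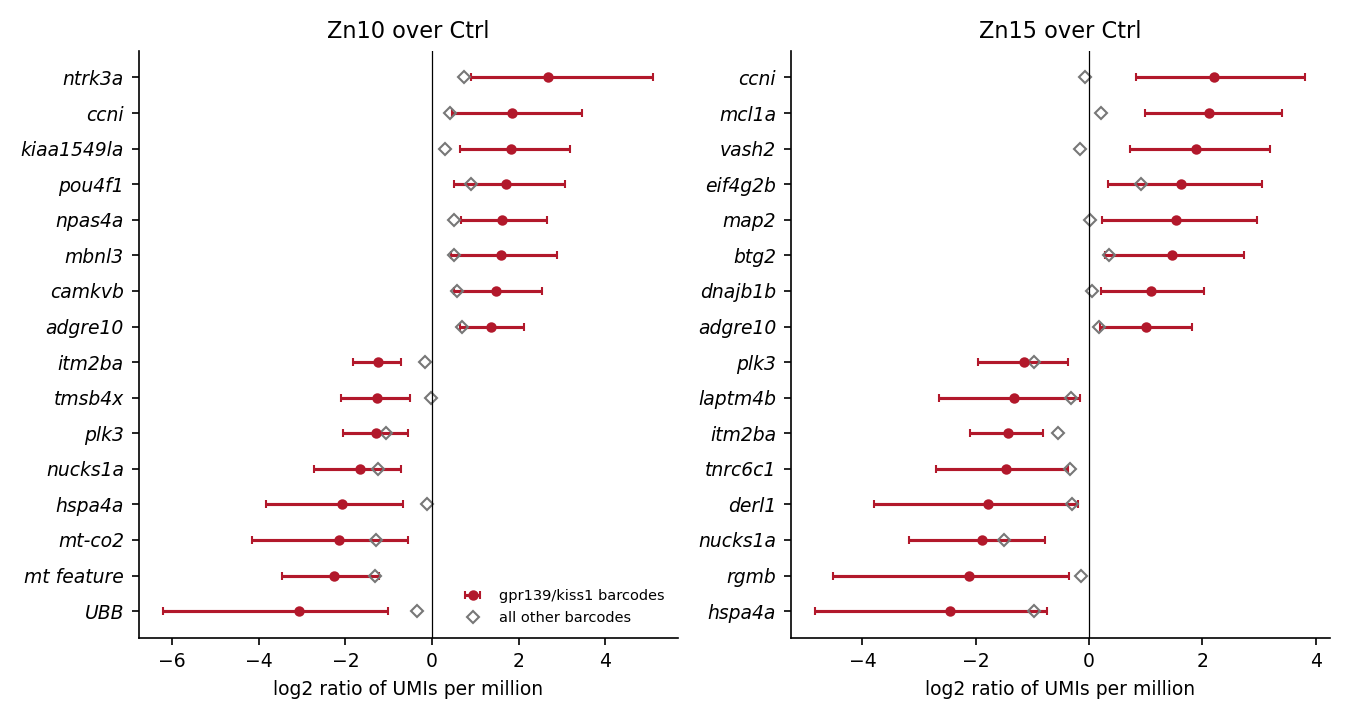
Log2 ratio of CPM in Zn10 over Ctrl (left) and Zn15 over Ctrl (right) for the genes named in gpr139/kiss1 barcodes, with 95% exact intervals for counting error, and the ratio in all other barcodes as open diamonds. nucks1a and plk3 have like ratios in both classes, and itm2ba moves to -0.56 and -0.71 without the barcodes that hold oligodendrocyte RNA.

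The gene lists are read against the 22.3% of all genes at least 2-fold apart between Zn10 and Ctrl and the 17.3% between Zn15 and Ctrl. Of 8 activity-regulated genes with at least 20 UMIs, 1 was at least 2-fold higher in Zn10 than in Ctrl and 0 lower, with a median log2 ratio of 0.48. In Zn15 2 were higher, npas4a and btg2, and 1, fosb, was lower, at 9 UMIs in Zn15 against 31 in Ctrl, with a median of 0.71. Of 11 heat shock genes 1 was at least 2-fold higher and 4 lower in Zn10, and 1 higher and 2 lower in Zn15. dnajb1b was the higher one in both, with ratios of 2.22 in Zn10 and 2.14 in Zn15, and hspa8 had 15 UMIs in Zn10 and 6 in Zn15 against 37 in Ctrl. Too few UMIs of metallothionein and zinc transporter genes were counted for a ratio: mt2 had 1 in Zn10 and 6 in Zn15 against 9 in Ctrl.

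Between the zinc libraries, 347 genes had at least 20 UMIs, of which 45 (13.0%) differed at least 2-fold, 18 higher and 27 lower in Zn15 than in Zn10, around a median log2 ratio of -0.14. UBB had 18 UMIs in Zn15 and 2 in Zn10, and eif4g2b, serinc1, the mitochondrial feature and ube2d2 were also higher in Zn15. tsc22d1, with 3 UMIs in Zn15 and 22 in Zn10, stmn1b, ube2al, agrn, camk2n1a, prox1a, pbx4 and leng8 were lower. agrn, which encodes the synapse organiser agrin, had a log2 ratio of -1.26 in gpr139/kiss1 barcodes and of -1.07 in all others, and camk2n1a encodes an inhibitor of calmodulin kinase II.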

How the data were processed

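Per the file headers, the deposited matrices hold UMI counts per gene and barcode made with Cell Ranger 4.0.0; per the submitters' processing notes, fastp, Seurat and the build GRCz11 were used. No source used here states which filters the authors applied before deposit. How reads shared by near-identical gene copies were counted is not stated either. Barcodes with at least 100 genes were kept. Counts were summed per library and class, filtered with filterByExpr, scaled with TMM and tested with edgeR 4.0.16 (quasi-likelihood, library as a block, Benjamini-Hochberg over all genes tested, rule genes left out), with DESeq2 1.42.0 as an alternative, in R 4.3.3. The SE of a fold change is its size divided by the root of the quasi-likelihood F. The same library supplies both classes of a pair, which is where the pairing comes from. Ratios between libraries have exact conditional binomial intervals at 95%. Clustering used Leiden (leidenalg 0.10.2) without 154 genes, the 6 rule genes among them. The scripts were tested on simulated data. Alternatives were other scalings, filters, depths, rules for barcodes, left-out libraries and no block; leaving out barcodes with oligodendrocyte RNA and the comparison with all kiss1 barcodes were chosen after seeing the data.

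The barcodes and gene lists were chosen with earlier results of these data known. Genes named are the rule genes, listed genes, for each edgeR comparison up to 15 higher and 8 lower genes with the largest fitted change, the same direction in each library and at least 5 UMIs per library on the higher side, and for each comparison of libraries up to 8 genes a direction past 2-fold whose interval excludes 1, with at least 20 UMIs and no barcode with over 25% of a library's UMIs, ordered by the bound nearest 1. Of 32057 features, 28988 matched the gene name table, which names the malat1 feature.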

Additional observations from a re-analysis of the deposited data

How the results depend on the processing

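Against all other barcodes the 525 genes called became 236 with DESeq2, which gave no adjusted p for 1680 genes, and 179 under a minimum of 200 genes. Leaving out 1 library gave 249 (without Zn10), 329 (without Zn15) and 420 (without Ctrl). Against fat2 barcodes 112 became 62 with DESeq2, 10 with at least 200 genes and 39 when thinned to 200 UMIs, and leaving out 1 library gave 89 to 124. Against slc17a6 barcodes 189 became 87 with DESeq2, 58 with at least 200 genes and 106 when thinned, and 101 without Ctrl to 207 without Zn15. With no filter the split of the first comparison was 96 higher and 533 lower, and of the third 62 and 162. With no replicate block the counts were 472, 86 and 169, and 1 in place of 0 for gpr139 alone against kiss1 alone; with no filter the comparison with all kiss1 barcodes gave 4 in place of 0. No paired analysis was possible between treatments because each has 1 library. The shares gave 0.941 for Zn10 over Ctrl and 0.487 for Zn15 over Ctrl with kiss1 alone, and 0.338 for Zn15 over Zn10 with at least 2 marker UMIs. With at least 200 genes they gave 1.52 (0.924 to 2.50) for Zn10 over Ctrl. Genes past 2-fold in Zn10 over Ctrl numbered 93, and 20 or 301 with at least 50 or 10 UMIs; in Zn15 over Ctrl 61, and 11 or 228, and 34 with at least 2 marker UMIs; in Zn15 over Zn10 45, and 6 or 213, and 16 with at least 2 marker UMIs. Fewer genes and barcodes enter the stricter settings; the cause of the other shifts was not tested. Of the listed genes called, 36 of 53 against all other barcodes lost the call under at least 1 setting (23 with DESeq2), as did 7 of 17 against fat2 barcodes (6 with DESeq2) and 15 of 23 against slc17a6 barcodes (12 with DESeq2). With at least 200 genes, 3 of those against fat2 barcodes changed sign, with log2 fold changes of 0.203 for snap25a, 0.196 for stxbp1a and -0.136 for hsp70l. Depth limits all of this: genes under about 3 UMIs in a class sum cannot be told from 0.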

Other observations

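Cluster 13 also held 120 barcodes that did not meet the rule, of which 8 had a UMI of a GABA gene and 4 of gpr139 or kiss1. The cluster was made on these genes, so their levels are a description. In CPM, the habenular gene gng8 stood at 125 in the 164 gpr139/kiss1 barcodes of the cluster, against 803 in these 120. nwd2 was at 2713 in the gpr139/kiss1 barcodes and 5780 in the others, kctd12.1 at 89.2 and 335, slc5a7a at 196 and 424, and slc17a6b at 1785 and 3504. pou4f1, at 785 and 1116, and tac3a, at 89.2 and 268, went the same way. In the other direction ppp1r14ab was at 2071 in the gpr139/kiss1 barcodes and 603 in the others, irx1b at 785 and 558, and nr4a2a at 1107 and 870. So were egr4, at 4159 and 1875, and aoc1, at 125 and 44.6. No test was made of these values.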
